A study of Schizosaccharomyces pombe with 3 samples.

Results

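The thiamine-regulated genes of fission yeast described here were nmt1, thi1, thi2, thi4, pho4 and bsu1. They were measured by chromatin immunoprecipitation of the corepressor subunit Tup11 in Schizosaccharomyces pombe. Spots were chosen by name, with the intergenic prefix removed, by symbol or systematic name. No measured ratio entered this rule, but the genes were chosen with earlier results of these data known. The array carried 9 features for 5 of these 6 genes, of 9989 features in all, namely 5 open reading frame (ORF) features and 4 intergenic features. An intergenic feature holds the name of the gene whose upstream gap it covers. The gene nmt1 is spotted under its older name thi3. No feature could be tied to bsu1, since its older name car1 is now the symbol of another gene as well.

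All 3 arrays belonged to 1 group, a strain carrying Tup11 fused to green fluorescent protein (GFP), harvested from exponential growth in YES, a rich medium. An anti-GFP antibody precipitated the crosslinked, sonicated chromatin. The precipitate and the input DNA were amplified by PCR and hybridised to the same array, with Cy5 on the precipitate and Cy3 on the input. The labels give separate experiments behind the 3 arrays. Replicates 1 and 2 have the array code E120D in their titles and replicate 3 has F060D. No untagged strain and no culture without thiamine was analysed here, so each value is precipitate over input within a single strain and medium.

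In S. pombe, thiamine (vitamin B1) shuts off the genes that make it and a few others. The name nmt1 stands for "no message in thiamine", and its promoter is widely used to switch genes on by leaving thiamine out. Nmt1 makes the pyrimidine moiety of thiamine, Thi2 makes the thiazole, and Thi4 joins them into thiamine phosphate. Thi1 is a zinc-cluster transcription activator of these genes, pho4 encodes the thiamine-repressible acid phosphatase, and bsu1 encodes a membrane transporter. Tup11 is a relative of budding yeast Tup1, which DNA-binding proteins bring to promoters, where it represses transcription. YES is made from yeast extract, which supplies thiamine.

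The promoters are shown first, since the features of 4 of these genes are named for the gaps that hold them; thi2 and bsu1 have no usable upstream feature, and whether a spotted product reaches these bases is not stated. The 60 bases before each annotated gene start follow, from RefSeq assembly ASM294v3, 5′ to 3′ on the gene's strand, with TATAAA in capitals. Coordinates below are those of the RefSeq genes and gaps to which the array's names were matched, since the array's own build is not stated in the labels or file headers.
nmt1: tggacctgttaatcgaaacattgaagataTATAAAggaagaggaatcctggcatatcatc
thi2: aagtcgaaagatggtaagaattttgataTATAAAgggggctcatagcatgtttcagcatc
pho4: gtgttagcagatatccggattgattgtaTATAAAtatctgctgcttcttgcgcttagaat
thi4: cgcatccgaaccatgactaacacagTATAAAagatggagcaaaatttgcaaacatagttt
thi1: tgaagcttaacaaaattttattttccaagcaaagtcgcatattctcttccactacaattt
bsu1: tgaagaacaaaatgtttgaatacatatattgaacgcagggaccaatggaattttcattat

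The 4 genes that carry the match are nmt1, thi2 and thi4, which encode enzymes of the pathway, and pho4. Its first base lay at position -31 in nmt1, -32 in thi2, -32 in pho4 and -35 in thi4, counted from the base before the annotated start as -1. Of all 5112 promoters, 4.40% had TATAAA on the gene's strand with its first base between -40 and -25, a window set after these positions were seen. The activator gene thi1 and the transporter gene bsu1 had no match in the 300 bases searched. Searched on both strands over 300 bases, TATAAA was in 51.2% of promoters. TGACGT (6.03% of promoters) and CCCCTC (1.94%) were in none of the 6 promoters. CCAAT (41.0% of promoters) was in pho4, thi1 and bsu1, and GATAA (60.6%) was in nmt1, thi4, thi1 and bsu1. A match is a description of letters and not evidence of a site.

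For the 2 genes with an upstream feature measured on all 3 arrays, the whole 300 bases searched are given, nmt1 from chrIII:1838115-1838414 on the plus strand and pho4 from chrII:447029-447328 on the minus strand, again with TATAAA in capitals.
nmt1: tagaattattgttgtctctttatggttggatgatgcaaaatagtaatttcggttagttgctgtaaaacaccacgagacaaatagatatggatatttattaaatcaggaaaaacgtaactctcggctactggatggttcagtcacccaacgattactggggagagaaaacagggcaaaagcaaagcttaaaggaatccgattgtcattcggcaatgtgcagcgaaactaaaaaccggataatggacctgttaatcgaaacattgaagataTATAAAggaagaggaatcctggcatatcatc
pho4: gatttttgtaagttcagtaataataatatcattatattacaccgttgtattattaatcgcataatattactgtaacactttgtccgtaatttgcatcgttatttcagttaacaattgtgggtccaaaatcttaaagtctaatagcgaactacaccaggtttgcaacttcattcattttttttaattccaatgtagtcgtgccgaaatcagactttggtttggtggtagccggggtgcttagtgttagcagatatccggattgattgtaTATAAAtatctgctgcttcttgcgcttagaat
GC content was 38% for nmt1 and 34% for pho4, and the mean of all promoters was 32.3%.

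The arrays differed in how much they measured. A feature counts as measured where at least 1 of its 2 spots had signal in both channels. This held for 7770, 4405 and 9929 features on replicates 1, 2 and 3. Spots with a precipitate signal and no input signal numbered 3639, 6936 and 2. Each value below is log2 of precipitate over input, centred on the array's median over all measured features. On that scale the median intergenic feature stood at 0.49, 0.49 and 0.15 and the median ORF at -0.48, -0.29 and -0.12, so an upstream feature starts from a higher level than an ORF. The scanner columns are lettered A and B and are not tied to a dye. As B over A, replicate 3 correlated with replicates 1 and 2 at r = -0.54 and -0.38 across features, while replicates 1 and 2 correlated at 0.72. The precipitate was taken as B on replicates 1 and 2 and as A on replicate 3, the channel that the deposited value table follows. This direction is likely and not settled, and the mean with the same letters on all arrays is given beside each main result. The value tables match the scanner tables only with ORF and intergenic names exchanged. The scanner names were kept, because intergenic spots labelled Missing had signal in both channels in 3.10%, 2.20% and 12.5% of cases, near the 2.10%, 0.90% and 12% of empty spots. If the scanner names were the exchanged ones, the upstream and ORF values of each gene below would trade places.

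The thiamine genes followed the same split between arrays. Of their 18 spots, 9, 5 and 18 had signal in both channels on replicates 1, 2 and 3, and 3, 7 and 0 had signal in the precipitate only. In features, 5, 3 and 9 of the 9 were measured, and 3 were measured on all arrays, namely the upstream features of nmt1 and pho4 and the pho4 ORF. The plot of spot signals shows this split.

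**Figure D1:**
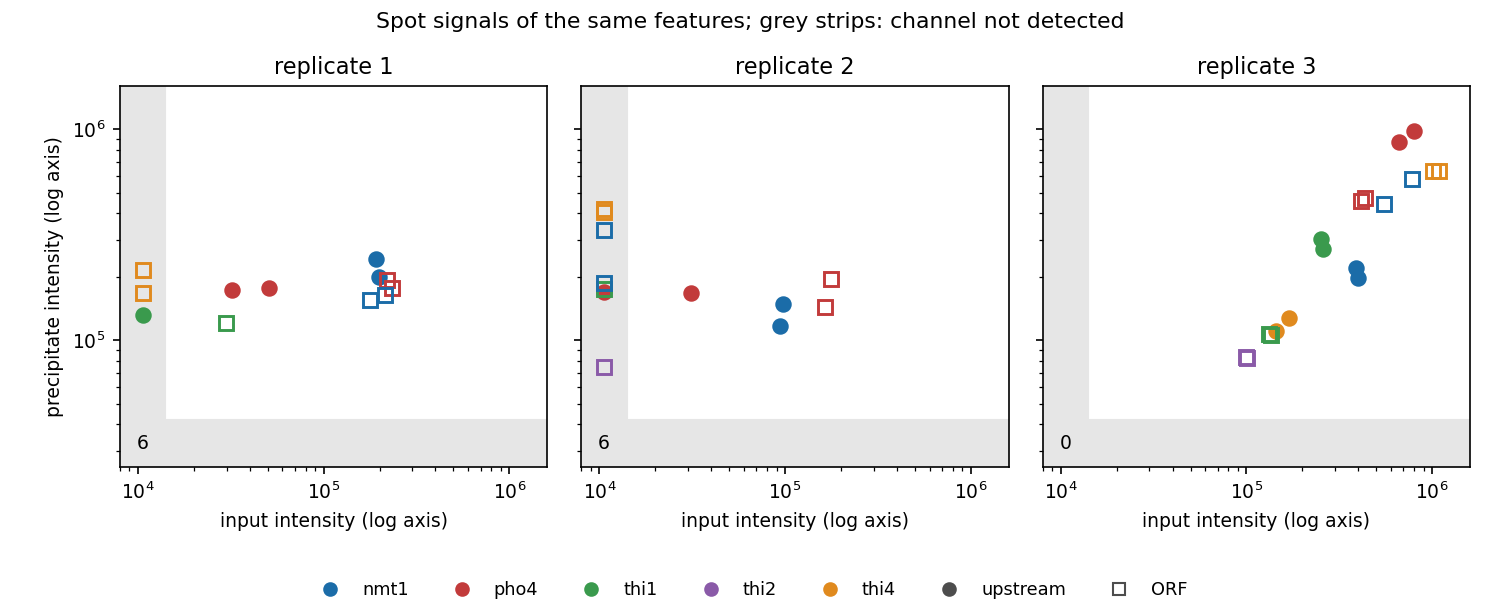
Precipitate against input intensity for each spot of the thiamine genes, with a panel per array, both axes logarithmic, filled circles for upstream features and open squares for ORFs. Spots in the grey strip on the left had no input signal, and the number in the corner counts spots with neither signal (6, 6 and 0); on replicates 1 and 2 some spots lie in the strip without input signal, and on replicate 3 none do.

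The upstream feature of pho4 was the only one of the 3 to pass the test against the array median. In the background, 9.25% of all features and 21.6% of intergenic features passed above the median. It stood at 1.43, 1.39 and 0.57 on replicates 1, 2 and 3. All arrays put it above their median, the E120D arrays by more than the F060D array. Its mean was 1.13 ± 0.48 (SD, n = 3), with a 95% interval of 0.43 to 1.83 and an adjusted p of 0.0125 (limma, Benjamini-Hochberg over 4280 features). Among the 1548 intergenic features measured on all arrays it ranked 253 from the top. Set against the median of intergenic features alone, a comparison added after seeing the data, it was 0.75 ± 0.29 higher with an adjusted p of 0.125. With the same channel letters on all arrays its mean was 0.75 with an adjusted p of 0.810. Leaving out replicate 1 gave 0.98 with an adjusted p of 0.397, and leaving out replicate 2 gave 1.00 with an adjusted p of 0.137, both no longer past the threshold. Loess gave 0.81 (adjusted p = 0.0619) and removal of GC content and length 0.79 (adjusted p = 0.0933).

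The spot signals behind the pho4 upstream value differed between the array codes. On replicate 1 its spots had precipitate intensities of 177510 and 172299 and input intensities of 50717 and 32283. On replicate 2 they had precipitate intensities of 167452 and 168460, and the input was detected at 31150 on the first and not at all on the second, so that a single spot gives the value. On replicate 3 the precipitate intensities were 870512 and 985809 and the input intensities 665036 and 796903. Within each array's signals, the input lay at percentiles 14.7 and 4.45 on replicate 1 and 5.43 on replicate 2, and at 81.3 and 87.0 on replicate 3. The precipitate lay between percentiles 56.6 and 60.4 on replicates 1 and 2, and at 89.4 and 91.6 on replicate 3. The part of the dim input in the higher ratios on the E120D arrays was not tested. With dim features left out, the pho4 upstream feature was no longer measured on all arrays.

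The gap upstream of pho4 runs over 2125 bp at chrII:446809-448933 and is shared with apq12, a gene transcribed the other way. It also holds the annotated non-coding RNAs SPNCRNA.4722 and SPNCRNA.4723. The array carries a feature named for apq12 in this gap as well. The feature named for pho4 stood at 1.43 on replicate 1 and 0.57 on replicate 3, against 0.07 and 0.02 for the feature named for apq12. Which stretch of the gap each spotted product covers is stated neither in the labels nor in the file headers.

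The coding region of pho4, at chrII:445417-446808, gave -0.97, -1.06 and 0.35. The E120D arrays put it below their median and the F060D array above. Its mean of -0.56 ± 0.79 (SD, n = 3) had an adjusted p of 0.270 in limma and lay close to the median of -0.39 over all 2732 ORF means, of which 15.5% were called below and 2.27% above. With the same channel letters its mean was -0.79. Without replicate 3 the mean was -1.02 with an adjusted p of 0.0313, past the threshold.

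Within each array the upstream feature of pho4 stood above its ORF, by 2.40, 2.45 and 0.23. The difference was far larger on the E120D arrays than on the F060D array. Its mean was 1.69 ± 1.27 (SD, n = 3) with an adjusted p of 0.0167 (limma over 752 genes with both features on all arrays). The standard error of 0.48 draws in part on all of these genes, so the adjusted p does not measure this spread alone. The upstream feature was the higher one in 31.4% of those genes by the same test, the ORF in 1.06%, and the median difference was 0.79. Pho4 lay at percentile 85.9 of the 752 differences. With the same channel letters the mean difference was 1.54 with an adjusted p of 0.867. Without replicate 1 it was 1.34 with an adjusted p of 0.177, and without replicate 2 it was 1.31 with an adjusted p of 0.259. Loess gave 0.94 (adjusted p = 0.0999) and removal of GC content and length 1.05 (adjusted p = 0.113).

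The upstream feature of nmt1, the pathway's best known promoter, was low on every array. It stood at -0.50, -0.58 and -0.70 on replicates 1, 2 and 3. These values lie close together, below the array median and further below the median of intergenic features. The mean was -0.59 ± 0.10 (SD, n = 3), with a 95% interval of -1.29 to 0.11 and an adjusted p of 0.241 in limma, so it did not pass the test. The standard error of 0.357 is shared by all features in this fit, and is wider than the spread of this feature's own values. An adjusted p from this fit therefore does not measure a feature's own spread, also where that spread is wide. Among intergenic features of each array it lay at percentiles 12.3, 9.32 and 2.35, and its mean ranked 1443 of 1548. In the background, 1.87% of intergenic features were called below the array median.

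Set against the median of intergenic features alone, the nmt1 upstream feature averaged -0.97 ± 0.11 with an adjusted p of 0.0414 (limma over 1548 features, added after seeing the data). In that comparison 7.36% of intergenic features were called below and 11.7% above. The call was lost without replicate 1 (mean -0.96, adjusted p = 0.299) and without replicate 2 (mean -0.92, adjusted p = 0.102), and held without replicate 3 (mean -1.03, adjusted p = 0.0279). With the same channel letters on all arrays the mean was -0.41 with an adjusted p of 0.999 against the intergenic median, and -0.13 against the array median. With GC content and length removed from all features, the mean against the array median was -0.92 with an adjusted p of 0.0418.

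Unlike the pho4 gap, the nmt1 gap had signal in both channels at each of its spots on all arrays. Its precipitate intensities were 199794 and 243071 on replicate 1, 147901 and 117407 on replicate 2, and 197606 and 219112 on replicate 3. Its input intensities were 197712 and 192537 on replicate 1, 97595 and 93885 on replicate 2, and 401265 and 387312 on replicate 3. The input percentiles ranged from 55.3 to 74.5, in the upper part of each array. The precipitate lay at percentiles 67.9 and 79.6 on replicate 1, 47.3 and 19.4 on replicate 2, and 27.3 and 31.8 on replicate 3. On replicate 1 the local background of the precipitate channel was 121176 and 124062. The gap covers 1570 bp at chrIII:1836915-1838484, downstream of hel2, which is read in the same direction. It holds the non-coding RNA SPNCRNA.7518 and part of SPNCRNA.1234, which runs antisense through nmt1.

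The nmt1 coding region, at chrIII:1838485-1839525, was measured on replicates 1 and 3 only, at -0.97 and -0.14. On replicate 2 both of its spots had a precipitate signal, 187199 and 331424, and no input signal. The upstream feature stood above the ORF by 0.47 on replicate 1 and below it by a difference of -0.56 on replicate 3. The arrays therefore gave opposite signs for nmt1, and no test was made.

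**Figure D2:**
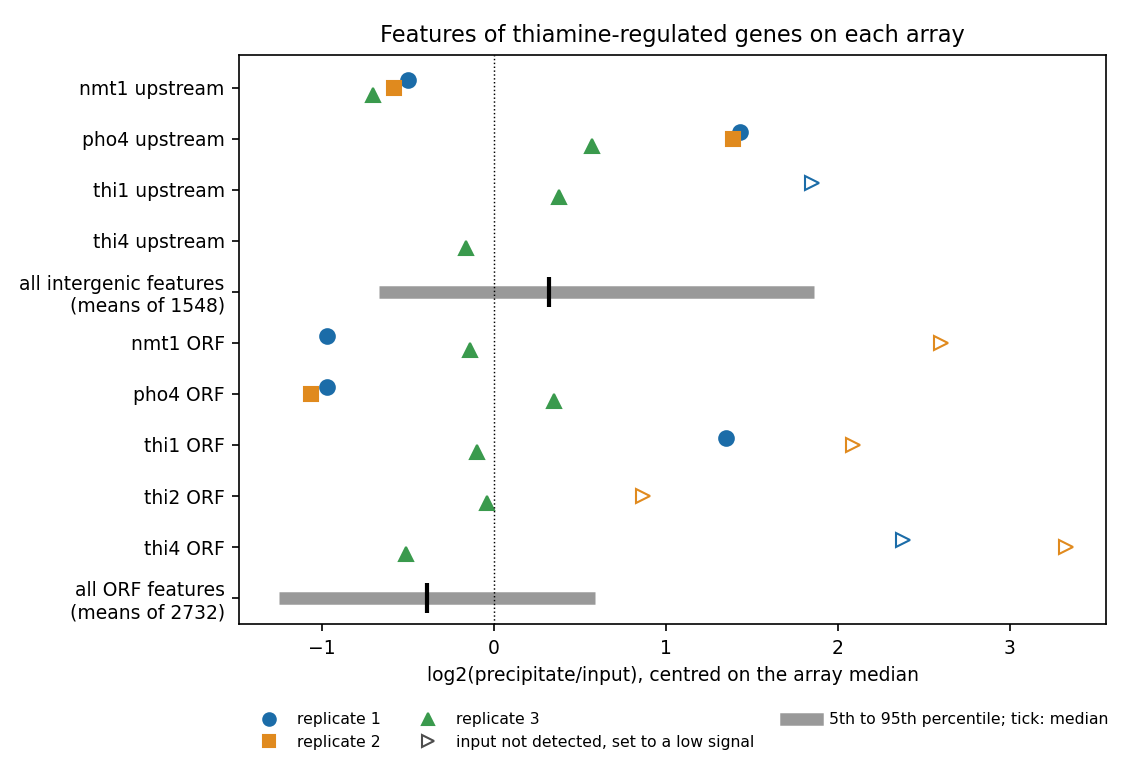
Centred log2 ratio of precipitate over input (horizontal axis) for each upstream and ORF feature of the thiamine genes, with a marker per replicate; open triangles stand for undetected input set to a low signal (the 1st percentile of the array), and grey bars for the 5th to 95th percentile of the means of all features of a kind. The pho4 upstream values lie at 1.43, 1.39 and 0.57, above the intergenic median of 0.32, and the nmt1 upstream values at -0.50, -0.58 and -0.70, below it.

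The remaining pathway genes were measured mainly on replicate 3, and none of their features could enter the fit over 3 arrays. Thi4 had an upstream value of -0.16 and an ORF value of -0.51 on that array. The thi4 ORF was bright there, with precipitate intensities of 630534 and 630927 and input intensities of 1012073 and 1089268, the input at percentiles 92.7 and 94.1. On replicates 1 and 2 the same ORF had no input signal. Its precipitate intensities were 215758 and 168134 on replicate 1 and 418882 and 404794 on replicate 2, and the local background of the precipitate channel was 214510 and 197296, and 407792 and 425355. Signal above background was thus about as large as the background itself at these spots. With the missing input set to the array's 1st percentile the thi4 ORF would stand at 2.38 and 3.33, against the measured -0.51 on replicate 3. No limit was therefore drawn from a zero in the input column. The thi4 gap covers 507 bp at chrI:1589593-1590099 and its spots had signal in neither channel on replicates 1 and 2.

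Thi1, the activator gene, had an upstream value of 0.38 on replicate 3, at percentile 67.1 of the intergenic features of that array. Its ORF stood at 1.35 on replicate 1 and -0.10 on replicate 3. The first rests on a single spot with a precipitate intensity of 121286 and an input intensity of 29674, which lay at percentile 3.28 of the array's input signals. On the replicate 3 array the spots of the thi1 ORF agreed closely, with precipitate intensities of 106202 and 106999 and input intensities of 135895 and 131685. The fit over features measured on 2 or 3 arrays gave the thi1 ORF an adjusted p of 0.374 and the nmt1 ORF 0.444.

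Thi2, the thiazole gene, was measured on replicate 3 only, with its ORF at -0.04, close to the array median. Its spots were dim, with precipitate intensities of 82833 and 83200 and input intensities of 100656 and 99386, at percentiles 5.34 and 5.39 in the precipitate and 6.15 and 5.99 in the input. An intergenic spot pair labelled as missing for thi2 had signal in both channels on no array and was not used.

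The 4 features named car1 cannot be assigned, since car1 is a former name of bsu1 and the current symbol of another gene. The feature car1 stood at -0.17, -0.85 and -0.53, all below the array median, with a mean of -0.52 ± 0.34 (SD, n = 3) and an adjusted p of 0.317 in limma. The intergenic feature named for car1 stood at 0.17 and a second ORF feature at 0.07, both on replicate 3 alone. The fourth, an intergenic pair labelled as missing, was not measured on any array. They are counted with neither gene.

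The genes around nmt1 and pho4 gave values on both sides of the array median. The nmt1 gap stood below the median on all arrays, while the hel2 ORF next to it stood above, at 0.15, 0.98 and 0.08. On the other side, the gut2 ORF gave -0.59, 0.15 and -0.43 and the gut2 upstream feature -0.08, -1.03 and 0.41, with no common sign. Downstream of pho4, the eca39 ORF stood at 1.22, 0.26 and 0.46, with a mean of 0.65 ± 0.51 and an adjusted p of 0.190. The gap 3′ of pho4, between it and eca39, was measured on replicate 3 only, where the pho4 upstream feature stood at 0.57 and this gap at 1.66. The hel2, gut2 and eca39 ORFs and the gut2 upstream feature did not pass the test. The gap 3′ of pho4 was measured on replicate 3 alone and could not be tested. The map of both loci shows these values by distance.

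**Figure D3:**
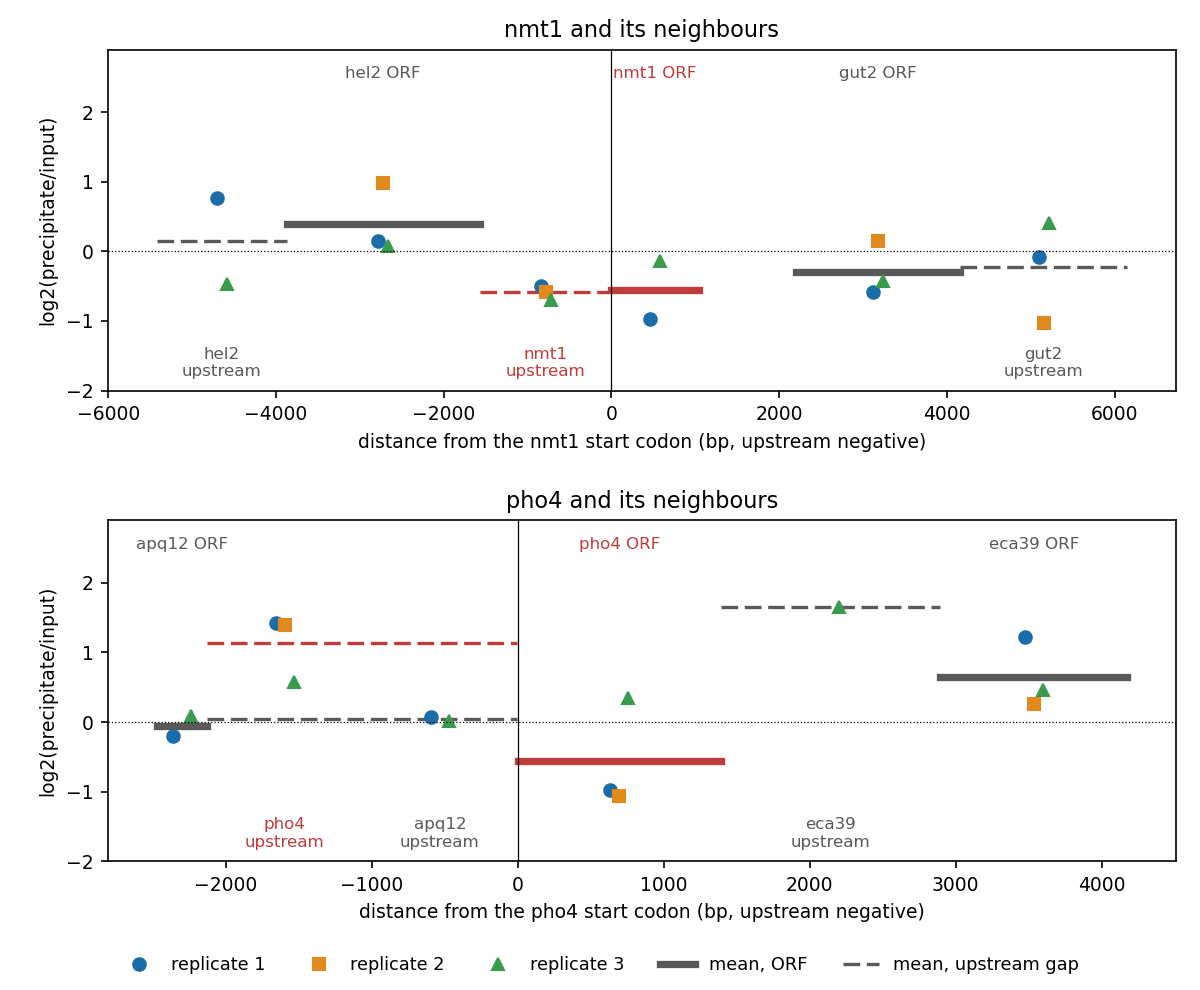
Centred log2 ratio (vertical axis) of the features around nmt1 and pho4 against the distance from each gene's start codon in bp, upstream negative; thick lines span ORFs and dashed lines gaps at the mean of the arrays that measured them, red for the named gene. Points are replicates, drawn at a set place within each span and not at a measured position; the 2 features of the gap between apq12 and pho4 share the same span, with means of 1.13 for pho4 and 0.05 for apq12.

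At the sec9 locus beside thi2, the sec9 ORF was the one neighbour called below the median, at -1.13, -2.01 and 0.35 (mean -0.93 ± 1.19, adjusted p = 0.0473 in limma). The standard error of 0.357 in the main fit is shared by all features and does not reflect the wide spread of the sec9 ORF. Its adjusted p was 0.0548 in the fit over 2 or 3 arrays, where the call was lost. In that fit the sec9 upstream feature, at 2.23 on replicate 1 and 0.69 on replicate 3, was above the median with an adjusted p of 0.0088. For the sec9 ORF, as for the pho4 ORF, the E120D arrays were low and the F060D array was not. The nob1 ORF beside the thi1 gap stood at 0.16, 0.14 and 0.53, with a mean of 0.27 ± 0.22 and an adjusted p of 0.626. The cnl2 ORF beside the thi4 gap was measured on replicate 3 only, at -0.93.

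Other genes linked to thiamine or thiamine diphosphate were described as a list of 14, of which 12 had features. Of its 11 upstream features, 4 were measured on all arrays, and 1 was called above and 0 below. That one was pdc101, a pyruvate decarboxylase gene, whose upstream feature stood at 2.32, 1.74 and 3.54, with a mean of 2.53 ± 0.92 and an adjusted p of 2.25e-10 in limma. It was high on all arrays, at percentile 97.5 or above, and its mean with the same channel letters was 0.17. Over all intergenic features 21.6% were called above and 1.87% below. The median of the 4 was 0.27, beside 0.32 over all intergenic features. Upstream of tnr3, which encodes the kinase that makes thiamine diphosphate, values were -0.92 on replicate 1 and 0.12 on replicate 3. The symbols thi22 and SPBC2G5.05 matched no feature.

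Of the list's 12 ORF features, 7 were measured on all arrays, 3 were called below and 0 above, beside the 15.5% and 2.27% of all ORFs given for pho4. The 3 were kgd1, an oxoglutarate dehydrogenase subunit gene, pda1, a pyruvate dehydrogenase subunit gene, and thi9, a thiamine transporter gene. Their means were -1.24 ± 1.21, -0.94 ± 0.78 and -1.15 ± 1.33, with adjusted p of 0.00592, 0.0448 and 0.0107 in limma. The pda1 call was lost in the limma fit over 2 or 3 arrays (adjusted p = 0.0518). The kgd1 ORF stood at -2.62, -0.70 and -0.38, lowest on replicate 1. The thi9 ORF stood at -1.28, -2.42 and 0.23, low on the E120D arrays and above the median on the F060D array. The shared standard error of 0.357 does not reflect the wide spread of kgd1 and thi9. With the same channel letters the means were -0.98 for kgd1, -0.61 for pda1 and -1.31 for thi9. The median of the 7 ORFs was -0.64, beside -0.39 over all ORFs.

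Phosphate and iron genes give the scale of the upstream values. Both lists were chosen with earlier results of these data known, so their counts are description only. Of 7 upstream features of phosphate genes measured on all arrays, 3 were called above and 1 below, with a median of 0.87, beside the 21.6% above, 1.87% below and median of 0.32 over all intergenic features. Among the 7, pho842 and tgp1 each count with a second feature of the same gap. The tgp1 gap gave the call below, at a mean of -1.09, and its other feature was not called (-0.32). The pho842 gap gave a call above, at 1.86, and its other feature was not called (0.87). The pho1 upstream feature, next to the gene of the phosphate-regulated acid phosphatase, stood at 1.25, 1.04 and 1.93 (mean 1.41 ± 0.47, adjusted p = 0.00138 in limma). A second feature named for the same pho1 gap stood at 0.33 on replicate 1 and 0.66 on replicate 3. The pho4 upstream feature lay above the first of these on the E120D arrays (1.43 and 1.39) and below it on the F060D array (0.57). Of 6 upstream features of iron uptake genes measured on all arrays, 6 were called above and 0 below, beside the same 21.6% and 1.87%. Their median was 2.70 and their range 1.00 to 3.03, but 3 of the 6 come from the 1 gap between fio1 and fip1. The pho4 mean of 1.13 was above the lowest of these, at 1.00, a second fio1 feature of that gap with 0.82, 1.21 and 0.97, and below the remaining 5. Upstream of fio1, which encodes the oxidase of iron uptake, the first fio1 feature gave 3.36, 2.01 and 3.72, and the feature of fip1, the permease gene, 3.31, 1.79 and 3.74. With the same channel letters on all arrays the medians were 0.14 for phosphate and 0.50 for iron upstream features. Differences between the lists were not tested.

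**Figure D4:**
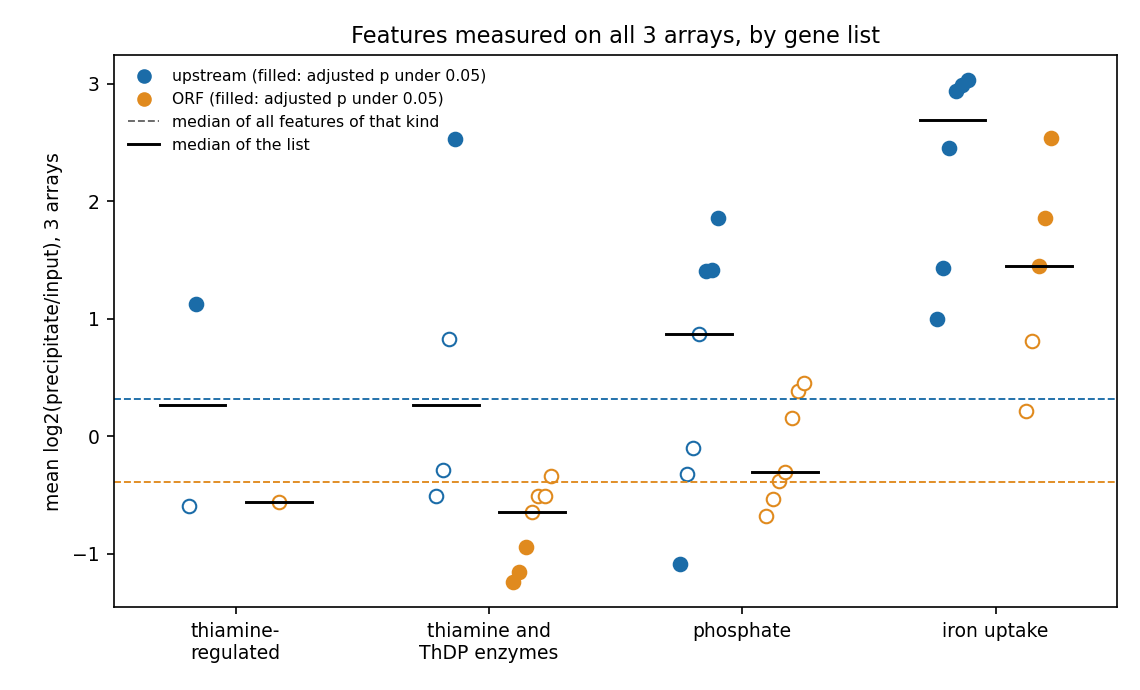
Mean log2 ratio over 3 arrays (vertical axis) for each feature measured on all of them, by gene list, upstream features in blue and ORFs in orange, filled where the adjusted p was under 0.05. Dashed lines mark the medians of all intergenic (0.32) and all ORF (-0.39) features; the thiamine-regulated upstream features lie at 1.13 (pho4) and -0.59 (nmt1), and the iron upstream features between 1.00 and 3.03.

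By the ranking the labels describe, a feature is listed when the median of its percentiles over the arrays reaches the 85th. The pho4 upstream feature had percentiles of 93.2, 94.4 and 84.3, a median of 93.2, and was listed. The nmt1 upstream feature had 32.4, 26.9 and 4.98, a median of 26.9, and was not, nor was the pho4 ORF at a median of 17.3. In the background, 23.8% of intergenic features and 2.49% of ORFs measured on all arrays were listed.

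The features most like each were found by the smallest Euclidean distance over the 3 centred log2 values, among features of the same kind. For the pho4 upstream feature these were the upstream features of qcr10 (distance 0.09), aco1 (0.19) and rga6 (0.28). The nearest, qcr10, stood at 1.47, 1.46 and 0.61. For the nmt1 upstream feature they were those of alp21 (0.13), ppk16 (0.35) and mtx2 (0.36), and alp21 stood at -0.55, -0.47 and -0.63. For the pho4 ORF they were SPAPJ691.02 (0.15), bud20 (0.15) and mep33 (0.16).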

How the data were processed

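The scanner tables were deposited as spot intensity on a linear scale, the integrated signal of channels A and B after subtraction of the local background, quantified with TIGR Spotfinder per the labels' protocols. The authors' value tables were read as log10 of 1 channel over its median, with -2 where empty, from their match to the scanner tables; their scale, centring and direction are not stated. Spots listed at 0 in a channel were left out. The log2 ratio of precipitate over input was averaged over the 2 spots of a feature and centred on the array's median. No further background correction or loess was applied. Features measured on all 3 arrays were tested with limma 3.58.1 in R 4.3.3 (mean against 0, adjusted p under 0.05). A fit with the array code as a random block could not be fitted to blocks of 2 and 1 arrays, so values within each code are given. The fit was tested on simulated data. The simulated noise was normal and equal for every feature and array, and undetected spots and the unsettled direction were not simulated. Names were matched to RefSeq ASM294v3, with 94.3% of features matching 1 gene. Named genes are the members, their neighbours, 3 fixed lists (thiamine and thiamine diphosphate, phosphate, iron) and the 3 nearest features of each member. Members and lists were chosen with earlier results of these data known. The number of arrays limits the precision.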

Additional observations from a re-analysis of the deposited data

How the results depend on the processing

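The pho4 upstream feature stayed above the array median in all alternatives that gave it a value, and its call was lost in many. Its log2 mean of 1.13 became 0.75 with the same channel letters on all arrays, 0.81 after loess, 1.24 with undetected channels set to a low signal, and 0.79 after correction for GC and length. In the authors' value tables, which follow 1 channel and do not give precipitate over input, it was 1.03. In these settings the adjusted p in limma lay between 0.0619 and 0.810. It ranged from 0.98 to 1.41 when a replicate was left out, and stood at 0.57 within array code F060D. It was not measured on all arrays with dim features left out. Against the intergenic median, a centring added after seeing the data, it was 0.75, and then 0.47 with the same letters, and 0.66, 0.68 and 0.92 without replicates 1, 2 and 3. The number of upstream features of the thiamine genes called above was 0, against 1 as reported, with the same letters, loess, the low signal for undetected channels, the filter on dim features, the GC and length correction, the value tables and the intergenic centring, and ranged from 0 to 1 when a replicate was left out. The cause was not tested.

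The nmt1 upstream feature, at -0.59, was called below after the GC and length correction (-0.92) and against the intergenic median (-0.97, and -1.03 there without replicate 3), which makes 1 upstream feature called below in each of those settings. It stood at -0.70 within array code F060D and ranged from -0.64 to -0.54 when a replicate was left out. In the value tables, which follow 1 channel and are not a ratio, it stood at 0.13, of the opposite sign, and the pho4 ORF at 0.22. The pho4 ORF ranged from -1.02 to -0.31 when a replicate was left out, and the number of ORFs of the thiamine genes called below from 0 to 1.

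The pho4 upstream minus ORF difference of 1.69 lost its call with the same letters (1.54), loess (0.94), the low signal for undetected channels (1.80), the fit over 2 or 3 arrays (1.69) and the GC and length correction (1.05). It was also lost in the value tables of 1 channel (0.81). The difference ranged from 1.31 to 2.43 when a replicate was left out.

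Over all 4280 features measured on all arrays, 396 were above and 452 below. Settings differ in how many features they test, so totals are given where they differ from the main fit. With the same letters, and for the authors' values, 0 were above and 0 below in limma. An unadjusted limma p under 0.05 was found for 147 of 4280 and 997 of 6777. Features above numbered 653 of 7887 over 2 or 3 arrays and 181 of 1548 against the intergenic median. With a replicate left out they numbered from 45 of 4402 (without replicate 1) to 552 of 7763 (without replicate 2). Features below numbered 96 after loess, 200 when centred on shared features, 234 with normexp and 278 with a trended prior. They numbered 15 of 8288 with undetected channels set low and 114 of 1548 against the intergenic median. With a replicate left out they ranged from 6 of 4402 (without replicate 1) to 872 of 4282 (without replicate 3). Genes with the upstream feature higher, 236 as reported, numbered 0 with the same letters, 151 after loess, 0 with undetected channels set low, 110 without dim features, 55 over 2 or 3 arrays, 98 with GC and length removed, 0 in the value tables, and 21 to 328 with a replicate left out. The percentile list held 437 of 4280 features, and 290 with the same letters. It held 743 of 8288 with undetected channels set low, 873 of 7887 over 2 or 3 arrays and 899 of 6777 in the value tables. With a replicate left out it held from 342 of 4282 (without replicate 3) to 837 of 7763 (without replicate 2). Of the thiamine features 1 was listed, and 0 with dim features left out.

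No comparison between groups was possible because all arrays belong to a single group. Pairing was within each array, of precipitate with input and of upstream feature with ORF. With 3 arrays, 1 of them of another code and with an unsettled direction, and only 9 and 5 of 18 thiamine spots measured in both channels on the E120D arrays, the values of thi2, of thi4 and of the thi1 upstream feature rest on 1 array each.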
